A study of Saccharomyces cerevisiae with 8 samples.

Results

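The proteasome degrades proteins marked with ubiquitin. Its 20S core is a barrel of outer alpha and inner beta rings, and some of the beta subunits cut peptide bonds. The 19S regulatory particle caps the barrel: its base holds a ring of ATPases, encoded by the RPT genes, that unfold substrates, and its lid holds the enzyme that removes ubiquitin. In budding yeast the zinc-finger transcription factor Rpn4 binds an element shared by many proteasome promoters and is itself a short-lived proteasome substrate. The genes described here are RPN4 and 32 subunit genes, chosen by systematic name: the 7 alpha and 7 beta genes of the 20S core, 10 genes of the 19S base and 8 of the lid. All 33 were present among the 5545 genes of the count table, and all 33 passed the filter on low counts that left 5488 genes.

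All libraries came from 1 Saccharomyces cerevisiae background, MATa with ura3-52 and leu2, in which LEU2 replaces SPE1 and SPE2, the genes of ornithine decarboxylase and S-adenosylmethionine decarboxylase. Both concentrations of spermidine were thus compared in cells lacking both genes, and no strain with intact SPE1 and SPE2 was analysed here. Cells were grown at 30 °C in SD medium with 10 µM or 0 µM added spermidine, from an OD of 0.025 to an OD600 of 0.6 to 0.7, and 2 ribosome footprint and 2 total RNA libraries were made at each concentration, 8 in all. The comparison addresses translation under high against low polyamine supply. A footprint is the stretch of mRNA that a ribosome shields from nuclease, here 17 to 34 nucleotides, so footprint counts follow the ribosomes on a gene's mRNA. Nothing in the labels ties the replicates to different cultures. The spread behind each p-value is therefore that between these libraries and may be technical.

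Footprint libraries held 3324344 and 4272944 gene counts at 10 µM and 5038682 and 7089928 at 0 µM. RNA libraries held 1786419 and 1925498 at 10 µM and 2525135 and 2884632 at 0 µM. Reads on the deleted SPE1 numbered 4 to 15 per library and those on SPE2 numbered 3 to 62. Levels below are CPM, a gene's count over the composition-adjusted library total, and each change is measured against that of most genes, which hides any shift common to all. In bulk cultures, a change in every cell and a change in the share of cells with a given level cannot be told apart. Single members were counted by 91 to 1973 reads in RNA libraries apart from 1 value of 3093 (RPT1, described below), and by 250 to 5285 reads in footprint libraries.

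Footprints on most proteasome subunit genes were higher with spermidine, and few of their mRNAs were called. A gene was called where its p from edgeR's quasi-likelihood test, adjusted by Benjamini-Hochberg over all tested genes, was below 0.05. Of the 33 members, 20 were called higher in footprints at 10 µM than at 0 µM, where 18.7% of all tested genes were called higher. RPN13 alone was called lower, where 19.8% of all tested genes were. In either direction that is 21 members called, where 38.5% of all tested genes were, and the other 12 did not pass the test. The median log2 change in footprints was 0.35 over the members and -0.02 over all tested genes. In RNA, 3 members were called higher (PRE3, RPN6 and RPN7), where 8.45% of all tested genes were, a share near that background. None was called lower by edgeR, DESeq2 or limma voom, where edgeR called 13.5% of all tested genes lower and 21.9% in either direction. At an unadjusted p under 0.05, edgeR gave 7 higher and 1 lower member in RNA, DESeq2 6 and 0, and limma voom 7 and 1. Over all 5488 tested genes edgeR gave 823 higher and 1091 lower at that threshold. The median RNA change was 0.10 over the members and 0.00 over all tested genes.

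**Figure D1:**
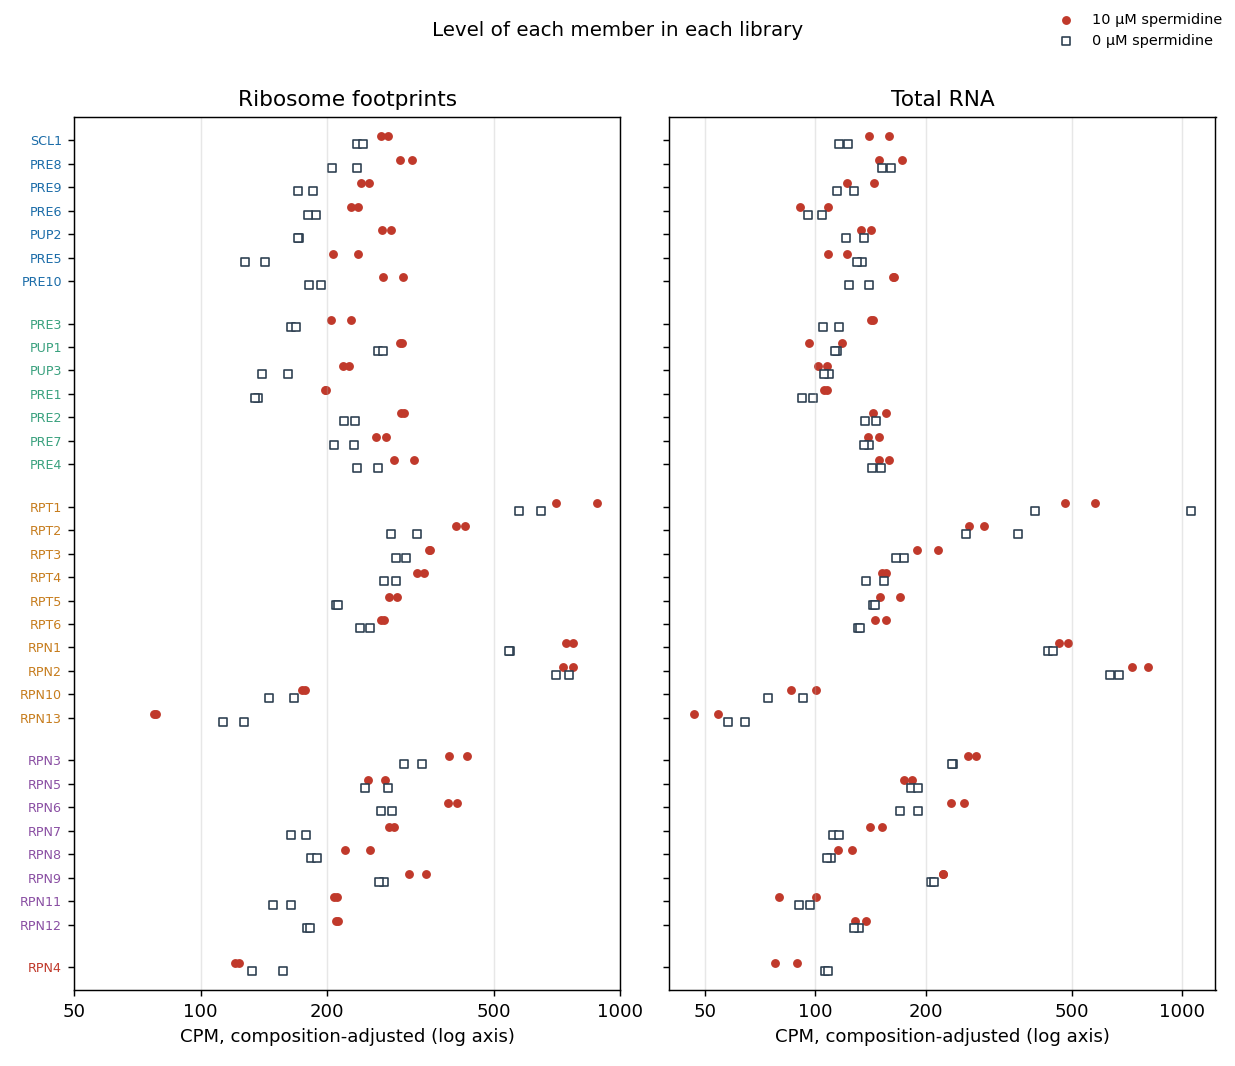
Level of each of the 33 members in each library, in composition-adjusted CPM on a log axis, for footprints (left panel) and RNA (right panel). Filled circles are the 2 libraries at 10 µM spermidine and open squares the 2 at 0 µM; both circles lie to the right of both squares for 29 members in footprints and 14 in RNA.

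Summed over the 32 subunits, footprints took 0.983% and 0.974% of the gene counts at 10 µM, against 0.768% and 0.825% at 0 µM. On the adjusted scale the sums were 10234 and 10184 CPM at 10 µM and 7796 and 8324 CPM at 0 µM, a ratio of means of 1.27. RNA of the same genes summed to 6050 and 6212 CPM at 10 µM and 5459 and 6267 CPM at 0 µM, so the RNA sums overlapped. RPT1 alone set that overlap: without it the RNA sums were 5571 and 5635 CPM at 10 µM and 5061 and 5210 CPM at 0 µM, a ratio of means of 1.09, while the footprint ratio stayed at 1.26. By library, 29 members had both 10 µM footprint values above both 0 µM values, where 35.3% of all tested genes did. A further 2, RPN4 and RPN13, had both below, where 37.4% of all tested genes did. The other 2, RPN5 and RPN2, overlapped. Taken in either direction, 72.6% of all tested genes had no overlap in footprints. In RNA, 14 members lay wholly above (28.6% of all tested genes), 3 wholly below (31.6%) and 16 overlapped, where 60.1% of all tested genes did not overlap.

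The alpha rings of the core gate entry to the chamber. In footprints 6 of their 7 genes were called higher, where 18.7% of all tested genes were. The median log2 change over the 7 was 0.48. PRE5 (YMR314W; chromosome XIII, 901709 to 902413 in the R64 assembly) had 237 and 206 CPM of footprints at 10 µM, against 127 and 143 CPM at 0 µM. Its mRNA had 121.7 and 108.2 CPM at 10 µM, against 134 and 130 CPM at 0 µM. Footprints were thus well apart between conditions, higher at 10 µM, with both RNA values at 10 µM below both at 0 µM. The footprint change was 1.64-fold, or 0.71 on the log2 scale (SE 0.12, edgeR adjusted p = 0.0013), and the RNA difference was -0.20 (SE 0.12, edgeR adjusted p = 0.30).

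PUP2 (YGR253C; chromosome VII, 998358 to 999140) had 271 and 284 CPM of footprints at 10 µM, against 172 and 170 CPM at 0 µM. Both 10 µM libraries lay above both 0 µM libraries, and edgeR gave a log2 change of 0.70 (SE 0.10) at an adjusted p of 7.1e-04. Its RNA differed by 0.10 (SE 0.11, edgeR adjusted p = 0.57). PRE10 (YOR362C; chromosome XV, 1017880 to 1018746) had 303 and 272 CPM of footprints at 10 µM, against 181 and 193 CPM at 0 µM. Its log2 change was 0.62 (SE 0.11), with 0.0019 as edgeR's adjusted p. Its RNA differed by 0.31 (edgeR adjusted p = 0.083), which did not pass the test. PRE8 (0.48), PRE9 (0.47) and PRE6 (0.34) were the other alpha genes called higher in footprints. PRE9 encodes the only alpha subunit that yeast can live without. SCL1 differed by 0.20 in footprints and by 0.32 in RNA, neither of which passed (edgeR adjusted p = 0.16 and 0.063).

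In the beta rings, 5 of 7 genes were called higher in footprints, where 18.7% of all tested genes were, with a median of 0.38. Among the genes of the 3 catalytic subunits, PRE3 (caspase-like activity) had a log2 footprint change of 0.38 (edgeR adjusted p = 0.017) and PRE2 (chymotrypsin-like activity) 0.41 (edgeR adjusted p = 0.0088). PUP1 (trypsin-like activity) differed by 0.16, which did not pass (edgeR adjusted p = 0.28). PUP1 had 298 and 301 CPM of footprints at 10 µM, against 265 and 272 CPM at 0 µM, so its 4 libraries did not overlap although the difference was small. Of the non-catalytic beta genes, PUP3 (0.56), PRE1 (0.54) and PRE7 (0.29) were called higher, and PRE4 (0.29, edgeR adjusted p = 0.057) was not. PRE3 was the only core gene called in RNA, with 144 and 142 CPM at 10 µM, against 116 and 105 CPM at 0 µM (log2 change 0.37, SE 0.11, edgeR adjusted p = 0.042). That RNA call was lost in each of the 8 fits that omitted 1 library (values 0.29 to 0.45), with DESeq2 and with RNA fitted alone.

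In the base of the 19S particle the footprint changes had an SD over genes of 0.32, against 0.19 in the alpha rings, 0.14 in the beta rings and 0.22 in the lid. That SD was widened by RPN13, at -0.63 the only base gene with a negative change. The interquartile range was 0.15 to 0.43 in the base, 0.40 to 0.66 in the alpha rings, 0.29 to 0.48 in the beta rings and 0.27 to 0.45 in the lid. Of its 10 genes 3 were called higher in footprints and 1 lower, counts not far from the 18.7% and 19.8% of all tested genes, with a median log2 change of 0.23. Among the ATPase genes, RPT5 (0.45, edgeR adjusted p = 0.0065) and RPT2 (0.44, edgeR adjusted p = 0.040) were called higher. RPT3 (0.22), RPT4 (0.24) and RPT6 (0.14) were not. Omitting 1 library ended the RPT2 call in 6 of 8 cases. RPN1, the large scaffold that docks ubiquitin shuttle proteins and the deubiquitinase Ubp6, had a footprint change of 0.48 (edgeR adjusted p = 0.0028). RPN2, the other large scaffold, had 728 and 769 CPM at 10 µM, against 704 and 752 CPM at 0 µM, and its footprints overlapped between conditions (0.04, edgeR adjusted p = 0.77). RPN10, a ubiquitin receptor, differed by 0.17 (edgeR adjusted p = 0.33).

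RPN13 (YLR421C; chromosome XII, 965090 to 965560), which encodes the ubiquitin receptor that sits on Rpn2, moved the other way. It had 78.3 and 77.3 CPM of footprints at 10 µM, against 113 and 127 CPM at 0 µM. Both 10 µM libraries lay below both 0 µM libraries, and the log2 change of -0.63 (SE 0.12) passed at an edgeR adjusted p of 0.0026. Its RNA had 54.3 and 46.7 CPM at 10 µM, against 57.9 and 64.2 CPM at 0 µM. That RNA difference, -0.28 on the log2 scale, had an edgeR adjusted p of 0.19 and was not called. The footprint call held in all 16 alternative fits. RPN13 was the shortest of the 33 genes, at 471 bp, and had the lowest CPM of the 33 in both assays.

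RPT1 (YKL145W; chromosome XI, 174213 to 175616), an ATPase gene of the base, had a library that stood apart. Its RNA was 479 and 578 CPM at 10 µM, against 398 and 1057 CPM at 0 µM, where replicate 2 held 3093 reads. The 2 RNA libraries at 0 µM differed by 1.41 on the log2 scale for RPT1. The next largest replicate difference among the members in that group was 0.47 (RPT2), and the median was 0.08. Only 0.51% of tested genes differed more between those 2 libraries. Footprints of RPT1 were 878 and 700 CPM at 10 µM, against 573 and 645 CPM at 0 µM, with no such excess in replicate 2 at 0 µM. The log2 change in footprints was 0.37 (SE 0.34, edgeR adjusted p = 0.42) and that in RNA was -0.46 (SE 0.34, edgeR adjusted p = 0.38). The 4 groups share 1 spread per gene, so the footprint SE takes in the gap between the 0 µM RNA libraries too. In 1 of the 8 alternative fits that omitted no library, the footprint change was called. Without RNA replicate 2 at 0 µM the RNA value was 0.40 (edgeR adjusted p = 0.14) and the footprint change of 0.40 was called (edgeR adjusted p = 0.042). Without RNA replicate 1 at 0 µM the RNA value was -1.003 (edgeR adjusted p = 0.0054) and the footprint change, again 0.40, was called (edgeR adjusted p = 0.042). The direction of RPT1 RNA therefore rested on 1 library, and why that library differed was not tested. RPT1 also had the most footprints per length of all 32 subunits in each library.

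**Figure D2:**
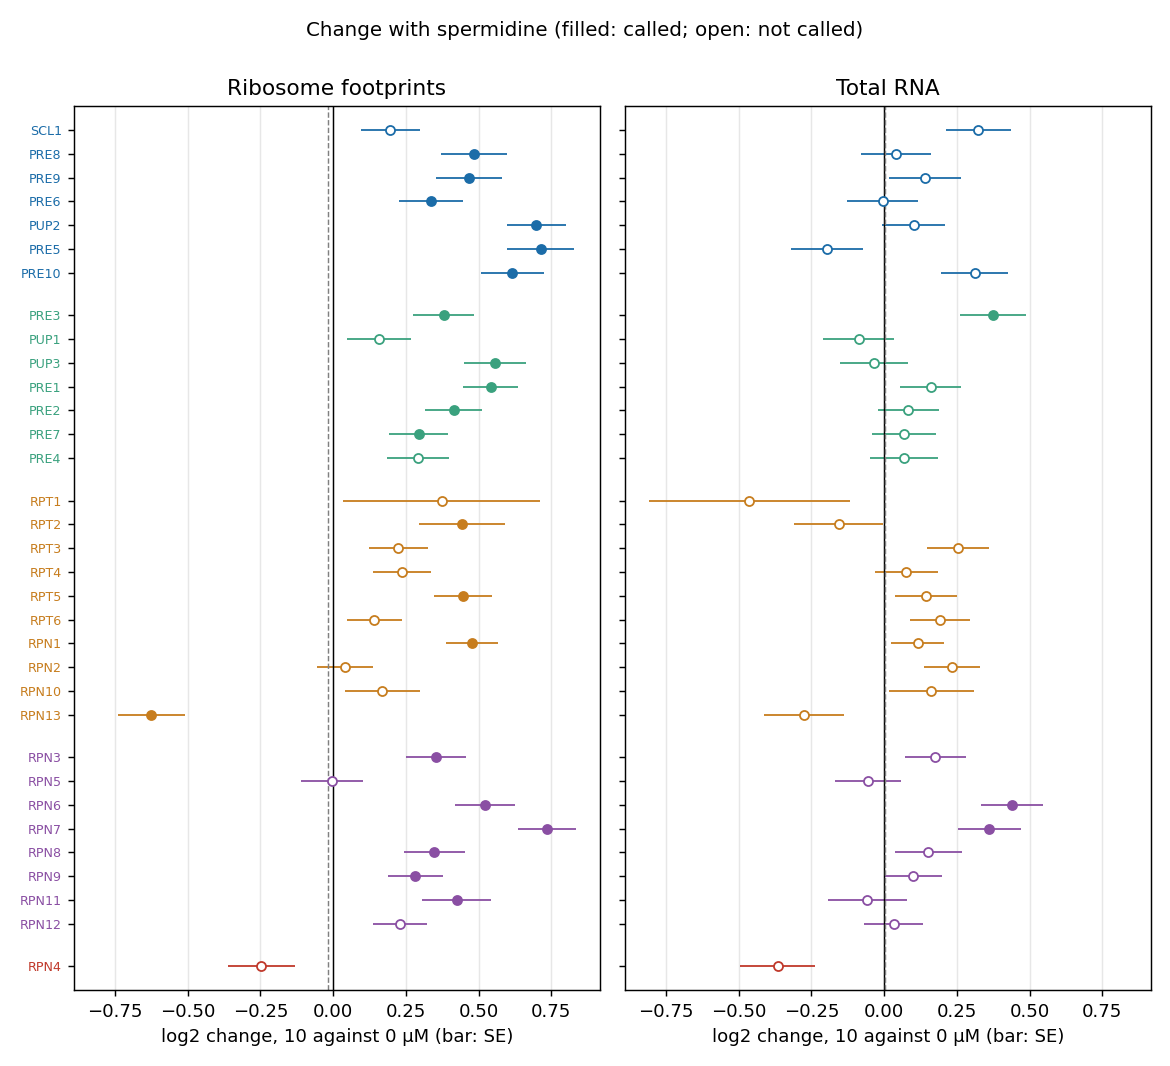
Log2 change at 10 against 0 µM spermidine with its SE for each of the 33 members, in footprints (left panel) and RNA (right panel). Filled points passed the edgeR test at an adjusted p below 0.05 and open points did not, the dashed line is the median of all tested genes, and 20 footprint points are filled to the right of 0, 1 (RPN13) to the left, and 3 RNA points are filled.

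In the lid, 6 of 8 genes were called higher in footprints, where 18.7% of all tested genes were, with a median log2 change of 0.35. RPN7 (YPR108W; chromosome XVI, 742454 to 743743), a structural lid subunit, had the largest footprint change of the 33 members. It had 289 and 280 CPM at 10 µM, against 164 and 178 CPM at 0 µM, a 1.66-fold change (log2 0.73, SE 0.10, edgeR adjusted p = 5.2e-04). Its RNA had 152 and 141 CPM at 10 µM, against 111 and 116 CPM at 0 µM (log2 change 0.36, SE 0.11, edgeR adjusted p = 0.041). All 4 comparisons of a 10 µM with a 0 µM library ran the same way in each assay. Omitting any 1 of the 8 libraries ended the RNA call (values 0.30 to 0.41), as did DESeq2 and RNA fitted alone, and ended the footprint call in no case. The table also lists YPR108W-A, an entry named for its place next to RPN7, with 64941 to 99311 RNA reads per library, against 274 to 340 for RPN7. Leaving YPR108W-A out changed no call of a member, and whether reads of it reach RPN7 was not tested.

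RPN6 (YDL097C; chromosome IV, 285391 to 286695), whose product clamps lid to core, had 389 and 408 CPM of footprints at 10 µM, against 269 and 286 CPM at 0 µM (log2 change 0.52, SE 0.10, edgeR adjusted p = 0.0035). Its RNA had 235 and 254 CPM at 10 µM, against 170 and 190 CPM at 0 µM (0.44, SE 0.11, edgeR adjusted p = 0.017), the largest RNA rise among the members. Both assays were thus apart between conditions by a similar factor. The RNA call was lost in 2 of the 8 fits without 1 library (0.36 to 0.52) and with RNA fitted alone. RPN11, the deubiquitinase of the lid (0.42), its partner RPN8 (0.35), RPN3 (0.35) and RPN9 (0.28) were also called higher in footprints. RPN12 (0.23, edgeR adjusted p = 0.082) was not, and RPN5 footprints overlapped, at 275 and 250 CPM at 10 µM and 246 and 280 CPM at 0 µM.

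RPN4 (YDL020C; chromosome IV, 415113 to 416708), the transcription factor, did not rise with the subunits. Its footprints were 123 and 121 CPM at 10 µM, against 132 and 157 CPM at 0 µM. Its RNA was 88.8 and 77.5 CPM at 10 µM, against 106.0 and 108.3 CPM at 0 µM. In each assay both 10 µM libraries were below both 0 µM libraries. The log2 change was -0.25 in footprints (SE 0.12, edgeR adjusted p = 0.12) and -0.37 in RNA (SE 0.13, edgeR adjusted p = 0.070), neither of which passed the test. RPN4 stayed negative and uncalled in footprints and RNA in all 16 alternative fits, between -0.36 and -0.09 in footprints and between -0.47 and -0.27 in RNA. Its footprint to RNA ratio was 1.39 and 1.56 at 10 µM, against 1.25 and 1.45 at 0 µM, taking libraries by replicate number. Protein levels of Rpn4 were not measured.

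**Figure D3:**
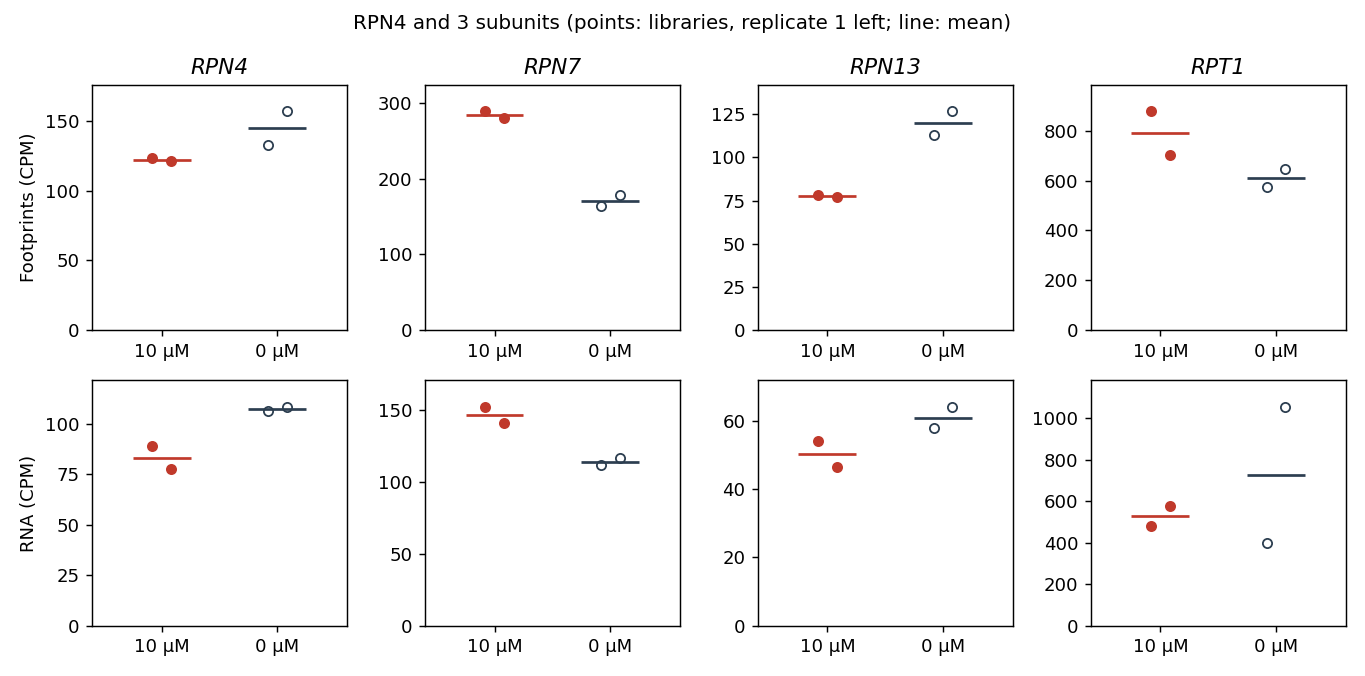
Composition-adjusted CPM of RPN4, RPN7, RPN13 and RPT1 in footprints (top) and RNA (bottom), on axes from 0, with points for libraries (replicate 1 on the left) and lines for means of 2. RPN7 lies higher at 10 µM in both assays, RPN4 and RPN13 lie lower, and RPT1 has 1 RNA library at 0 µM, at 1057 CPM, far from its replicate at 398 CPM.

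The change in translational efficiency, which is the footprint change minus the RNA change, was positive for 28 of the 33 members. It was positive for 55.4% of all tested genes. Its median was 0.23 over the members and 0.05 over all tested genes. A single member, PRE5, was called (0.91, SE 0.17, edgeR adjusted p = 0.036), where 0.893% of all tested genes were called higher, 0.893% lower and 1.79% in either direction. No member was called lower by edgeR, DESeq2 or limma voom. At an unadjusted p under 0.05 edgeR gave 10 members higher and 0 lower, DESeq2 4 and 0, and limma voom 10 and 0. Over all 5488 tested genes edgeR gave 580 higher and 435 lower at that threshold. With library totals in place of the TMM factors the calls over all genes were 37 higher and 83 lower, against 49 and 49, and the member median was 0.14 where that of all tested genes was -0.03. The footprint to RNA ratio of PRE5 was 1.95 and 1.91 at 10 µM, against 0.952 and 1.098 at 0 µM. Omitting 1 library ended its call in 7 of 8 cases, with values of 0.81 to 1.02 (largest edgeR adjusted p 0.13).

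By role, the median efficiency change was 0.34 in the alpha rings, 0.25 in the beta rings, 0.08 in the base and 0.19 in the lid. PUP2 (0.60, edgeR adjusted p = 0.080) and PUP3 (0.59, edgeR adjusted p = 0.095) came nearest to the threshold after PRE5. RPN2 (-0.19), RPN13 (-0.35) and SCL1 (-0.13) were the lowest, and none of these passed. Across the 33 members, changes in RNA and footprints correlated with Pearson r of 0.37 and Spearman rho of 0.18. Across all 5488 tested genes the values were 0.62 and 0.61. These are descriptions across genes, which share the same libraries and are not independent, and the RNA changes of the members spread less (SD 0.21) than those of all tested genes (SD 0.48).

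**Figure D4:**
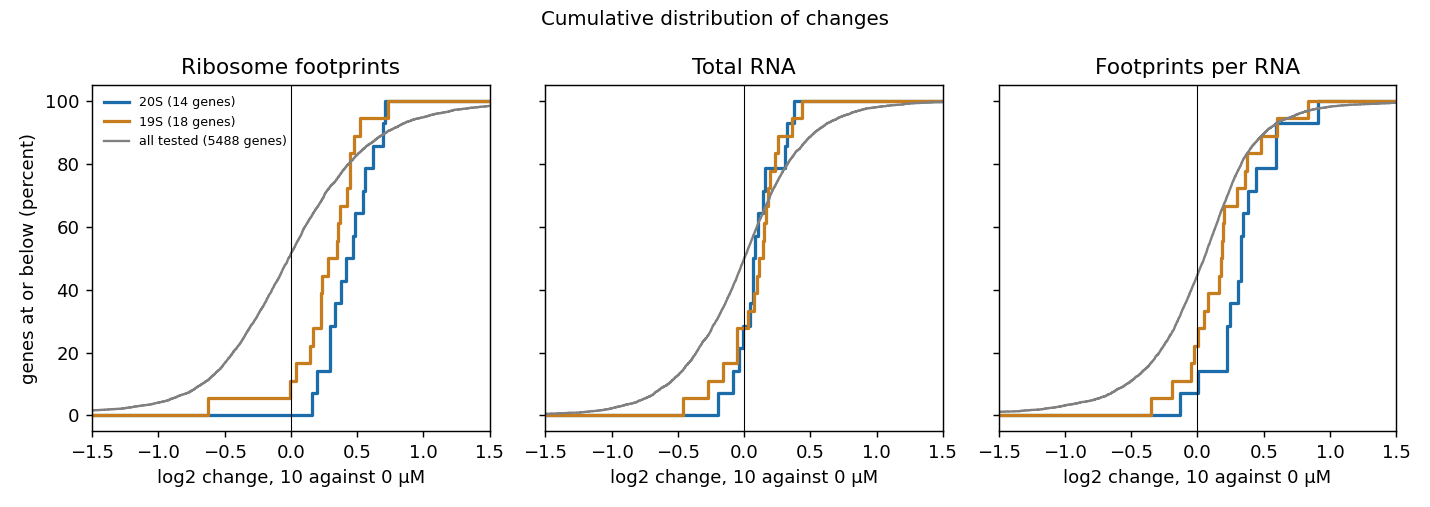
Cumulative percentage of genes at or below each log2 change (10 against 0 µM) for the 14 core genes, the 18 genes of the 19S particle and all 5488 tested genes, in footprints, RNA and footprints per RNA. The medians of core, 19S and all genes are 0.44, 0.32 and -0.02 in footprints and 0.08, 0.13 and 0.00 in RNA.

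Levels of subunits were compared with each other per kilobase of gene length in the RefSeq table. The table's length is a coding length for all members except PRE3, whose 764 bp is not a multiple of 3. The assembled core holds equal numbers of each of its 14 subunits. Over these 14 genes, footprint levels spanned 267 to 396 and 293 to 422 CPM per kb in the 10 µM libraries, against 181 to 337 and 202 to 346 CPM per kb at 0 µM. The coefficient of variation over the 14 was 9.11% and 12.0% at 10 µM, against 17.7% and 18.7% at 0 µM. Footprint levels of the core subunits were thus closer to each other in both 10 µM libraries than in either 0 µM library, a description with no test. In RNA the coefficient of variation was 14.1% and 13.9% at 10 µM, against 12.4% and 13.9% at 0 µM. Counting error alone gives up to 3.98% for the least-read core gene in a footprint library and up to 7.52% in an RNA library. At 0 µM, PRE5 had the fewest footprints per length of the 14 and PUP1 the most in both libraries. At 10 µM the fewest were on PRE3 in replicate 1 and on PRE5 in replicate 2, and the most on PRE8. The 267 CPM per kb of PRE3 rests on a length that is not a coding length. That value, its rank and its part in the spread are therefore uncertain. The lowest alpha gene in the same library was PRE6, at 310 CPM per kb.

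**Figure D5:**
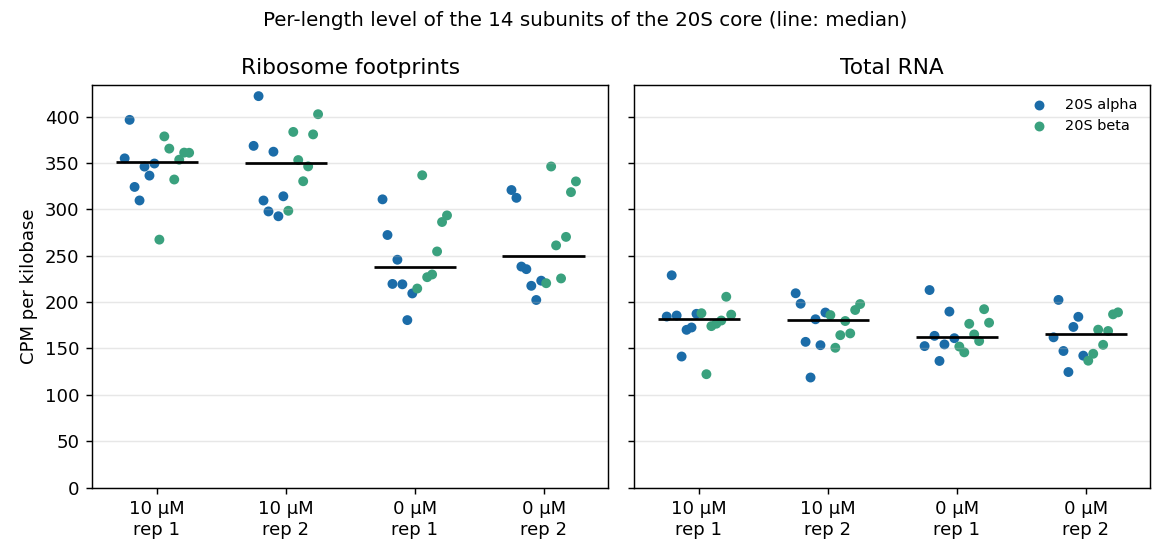
CPM per kilobase of the 14 core subunit genes in each library, for footprints (left panel) and RNA (right panel), alpha genes in blue and beta genes in green, with the library's median as a line. In footprints the medians are 351 and 349.7 CPM per kb at 10 µM and 238 and 249.7 at 0 µM, and in RNA they are 182 and 181 at 10 µM and 162 and 165 at 0 µM.

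Over the 18 genes of the 19S particle the coefficient of variation in footprints per length was 36.6% and 27.5% at 10 µM, against 27.9% and 30.0% at 0 µM. Lid genes alone had values of 12.5% and 16.2% at 10 µM, against 17.6% and 15.0% at 0 µM, which overlapped. Base genes spanned a 3.76-fold and a 3.04-fold range at 10 µM, from RPN13 to RPT1, against 2.54-fold and 2.83-fold at 0 µM, from RPT5 to RPT1. RPN7 had the fewest footprints per length of all 32 subunits in both 0 µM libraries, at 127 and 138 CPM per kb, and RPN13 had the fewest in both 10 µM libraries, at 166 and 164 CPM per kb. The median over the 32 subunits was 285 and 295 CPM per kb at 10 µM and 218 and 224 CPM per kb at 0 µM, above at least 85.5% of tested genes in each footprint library.

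The 33 genes lie on 13 chromosomes, and RefSeq places no other gene over any of them. On chromosome VI, PRE4 and RPN12 lie 2638 bp apart, and on chromosome XV, RPT4 and RPN8 lie 2206 bp apart. RPN12, RPT4 and PRE4 were not called in footprints, while RPN8 was.

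Among 17 genes for proteasome assembly chaperones and associated factors, footprints of 5 were called higher and 1, the core assembly chaperone POC4 (-0.45, edgeR adjusted p = 0.019), lower. Over all tested genes the shares were 18.7% higher and 19.8% lower. POC4 RNA had 1009 and 1053 CPM at 10 µM, against 796 and 964 CPM at 0 µM (log2 change 0.23, edgeR adjusted p = 0.19). Its mean footprint to RNA ratio was 0.086 at 10 µM and 0.14 at 0 µM, the lowest of the 17. The medians of the list were 1.21 and 1.15. Why POC4 had so many RNA reads for its footprints was not tested. DSK2, a shuttle that carries ubiquitinated proteins to the proteasome, had 327 and 349 CPM of footprints at 10 µM, against 184 and 182 CPM at 0 µM (log2 change 0.89, edgeR adjusted p = 1.6e-04). The other shuttle genes RAD23 (0.67) and DDI1 (0.44), the base assembly chaperone HSM3 (0.87) and the deubiquitinase UBP6 (0.63) were also called higher. The footprint call of DDI1 was lost in 2 of the 8 omissions of 1 library. In RNA, HSM3 (0.66), RAD23 (0.46) and DSK2 (0.38) were called higher, where 8.45% of all tested genes were. Omitting 1 library ended the RNA call of DSK2 in 6 of 8 cases and those of HSM3 and RAD23 in 3 of 8 cases each. UMP1, the chaperone of core maturation, differed by -0.04 in footprints, and SEM1, the small lid subunit outside the 33, by 0.25 (edgeR adjusted p = 0.83 and 0.10). The median footprint change of the list was 0.20. POC4, UBP6, UMP1 and SEM1 were named after their values were seen. In efficiency edgeR and limma voom called none of the 17, and DESeq2 called 1 lower, where it called 83 of 5275 genes lower. At an unadjusted p under 0.05 edgeR gave 1 higher and 1 lower, where it gave 580 and 435 of all 5488 tested genes.

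Among 19 genes for ubiquitin, its conjugating enzymes and ligases, and the segregase Cdc48, footprints of 7 were called higher and 4 lower, where 18.7% and 19.8% of all tested genes were, so the lower count is near the background. DESeq2 called 4 higher and 2 lower, where it called 754 and 725 of 5275 genes overall higher and lower. The median change over the 19 was 0.08. UBA1, the ubiquitin-activating enzyme, had 1120 and 1138 CPM of footprints at 10 µM, against 654 and 662 CPM at 0 µM (log2 change 0.78, edgeR adjusted p = 1.8e-04), and its RNA was called higher too (0.63, edgeR adjusted p = 0.0012). UFD1 (0.80), a cofactor of Cdc48, the polyubiquitin gene UBI4 (0.66) and CDC48 (0.42) were called higher in footprints. UBI4 shares ubiquitin-coding sequence with other genes, so its own value is uncertain. The ubiquitin ligase genes TOM1 (-0.51), RSP5 (-0.45) and UFD4 (-0.36) and the conjugating enzyme gene RAD6 (-0.42) were called lower. The ligase gene HRD1 (0.42) and the conjugating enzyme gene UBC5 (0.42, edgeR adjusted p = 0.049) were called higher. Ligase genes UBR1 (0.07), UBR2 (0.21), SSM4 (0.07) and SAN1 (-0.08) and the conjugating enzyme gene UBC4 (-0.28) were not called. These ligase and conjugating enzyme genes were named after their values were seen. In RNA 3 genes of the list were called higher and 4 lower, where 8.45% and 13.5% of all tested genes were. DESeq2 called 2 higher and 1 lower in RNA, where it called 367 and 473 of 5275 genes. By edgeR, the genes named next were called in RNA. Among the lower ones were UFD4 (-0.53), SAN1 (-0.49) and UBC4 (-0.39), and the ligase gene UBR2 (0.53) was among the higher ones. Omitting 1 library ended the RNA call of UBC4 in 7 of 8 cases, that of SAN1 in 4 and that of UFD4 in 1, and other settings ended that of UBC4 in 4 of 8 cases and that of SAN1 in 3. No gene of the list was called in efficiency by edgeR, DESeq2 or limma voom. At an unadjusted p under 0.05 edgeR gave 2 higher and 0 lower, where it gave 580 and 435 of all 5488 tested genes.

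Of 4 transcription factor genes known to act on the RPN4 promoter, PDR3 alone was called lower in footprints. That count is near the 19.8% of all tested genes called lower. None of the 4 was called higher, where 18.7% of all tested genes were. PDR3 had 28.2 and 22.8 CPM at 10 µM, against 40.5 and 38.6 CPM at 0 µM (-0.64 on the log2 scale, with an edgeR adjusted p of 0.017). That call was lost in 3 of the 8 omissions of 1 library. Its RNA differed by -0.01 (edgeR adjusted p = 0.96). PDR1 (0.04), YAP1 (0.03) and HSF1 (0.15) were not called in footprints (edgeR adjusted p = 0.85, 0.87 and 0.32). None of the 4 was called in RNA by edgeR, DESeq2 or limma voom, nor did any reach an unadjusted p under 0.05 in edgeR.

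The count of members called higher in footprints depended on single libraries. It fell without footprint replicate 1 at 0 µM and without footprint replicate 2 at 10 µM. Calls were not lost in those fits alone. PRE6, PRE7, RPT2 and RPN9 lost theirs without any one footprint library. PRE7, RPT2 and RPN9 also lost theirs without either RNA library at 10 µM. The share of all tested genes called higher fell without any one footprint library. The members' median footprint change was 0.33 and 0.42 without replicate 1 and 2 at 0 µM, and 0.40 and 0.30 without those at 10 µM. That of all tested genes was -0.0016, -0.00057, -0.018 and -0.022 in the same order. PUP2, PRE5, PRE10, PUP3, PRE1, RPT5, RPN1, RPN6 and RPN7 were called higher in all 16 alternative fits, and RPN13 was called lower in all of them. The share of all tested genes called in all 16 was not computed, so these members cannot be set against a background.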

How the data were processed

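Counts of reads per gene for the 8 libraries were deposited by the authors as raw whole numbers. The tools in the submitters' processing notes are cutadapt, edgeR and Bowtie (1.1.2 and 1.2.2), and the builds are sacCer3 and R64, without a stated order. No source used here says which part of a gene was counted, or how strand and multi-mapping reads were handled. Every count was at least 1, so the table seems to leave out genes with a 0. It also held 3 empty lines. Groups were taken from sample titles.

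The counts were fitted with edgeR 4.0.16 under R 4.3.3. filterByExpr (minimum count 10, minimum total 15) selected genes, libraries were scaled by trimmed mean of M values (TMM), and 1 quasi-likelihood model of 4 groups left 4 residual degrees of freedom. P-values were Benjamini-Hochberg adjusted over all 5488 tested genes, with a threshold of 0.05. SEs are the absolute log2 change over the root of F. Alternatives were RLE scaling, library totals, no filter, DESeq2 1.42.0, limma 3.58.1 voom, each assay alone, a replicate block, omission of YPR108W-A and of each library, and trimmed lengths. Fits were tested on simulated data. The members and lists were chosen with earlier results of these data known. Full statistics are given for RPN4 and, per contrast, for the 4 largest rises and falls among called members, and up to 4 genes of each related list are named by smallest p. Symbols, coordinates and lengths are from RefSeq (R64), which matched 5543 of 5545 IDs.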

Additional observations from a re-analysis of the deposited data

How the results depend on the processing

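The number of members called higher in footprints, 20, lay between 9 and 23 when each of the 8 libraries was omitted in turn, and 1 member was called lower in each case. The 3 called higher in RNA became 1 with DESeq2, 0 with RNA fitted alone, and 0 to 1 over the omissions. The 0 called lower in RNA became 1, RPT1, without RNA replicate 1 at 0 µM (range 0 to 1). The 1 called higher in efficiency ranged from 0 to 2 over the omissions. Of all tested genes, DESeq2 called 6.85% higher in RNA, and the fit of RNA alone called 6.46%. The median RNA change of 0.10 was 0.15 with RLE scaling and with DESeq2, where the median of all tested genes was 0.05. RPT1, at -0.46 in RNA and 0.84 in efficiency, was 0.40 and -0.0071 without RNA replicate 2 at 0 µM, and -1.003 and 1.40 without RNA replicate 1. The cause was not tested. With the first and last 15 codons subtracted from each length, median levels over the 32 subunits were 324 and 247 CPM per kb for footprints and 189 and 169 CPM per kb for RNA at 10 and 0 µM, higher than with whole lengths by construction. Without PRE3, an alternative chosen after seeing the data, the variation of core RNA at 10 µM averaged 14.5%, against 14.1% and 13.9% in its 2 libraries with PRE3. Footprint calls of PRE6, PRE7, RPN8 and RPN9 were lost with library totals and with DESeq2, and that of RPT2 with library totals. Omitting 1 library ended the footprint calls of PRE7, RPT2 and RPN9 in 6 of 8 cases each, and that of PRE6 in 4. With the replicate number as a block, 2 members were called higher in efficiency, PRE5 and PUP2, and 21 in footprints. Of all tested genes, 2.84% and 21.6% were called higher in that fit. No efficiency value exists with each assay fitted alone. Deviations of same-numbered libraries correlated at 0.24 in footprints and 0.18 in RNA, and the labels do not say that numbers mark pairs. Depth is lowest in RNA, where the SE of the log2 change was 0.0911 for RPN1 and 0.138 for RPN13.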
